A study of Mus musculus with 6 samples.

Results

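The 8 genes described here encode the heavy chains of striated-muscle myosin: Myh3, Myh8, Myh2, Myh1, Myh4, Myh7, Myh6 and Myh7b. They were taken by gene symbol from the transcript files and make up 28 of 131100 transcripts and 8 of 52550 genes. RNA-seq was done on 3 Eed mutant and 3 wild-type mouse medulloblastomas, which are tumours of the cerebellum. The Eed protein is part of a Polycomb complex, whose histone methylation keeps developmental genes off. The sources used here do not give the mutant allele, the cells in which it was made, the driver of the tumours or the age and strain of the mice. The labels do not say that each tumour is from its own animal, and p-values here cover just the variation among these 6 libraries, which may be partly technical. In bulk RNA of this kind, more cells of a type and more RNA per cell cannot be told apart.

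A myosin heavy chain is the motor of the thick filament: its head burns ATP to pull on actin, and the heavy chain type largely sets how fast a fibre contracts. Developing skeletal muscle uses the embryonic chain Myh3 and the perinatal chain Myh8. Around and after birth these give way to the adult fast chains Myh2 (type IIa), Myh1 (type IIx) and Myh4 (type IIb) and to the slow chain Myh7, which the heart also uses. Myh6 is the alpha chain of the heart, and Myh7b is an ancient slow-tonic chain that hosts the microRNA gene Mir499 and whose RNA is also found in brain. Normal cerebellum makes no skeletal muscle, while medulloblastoma with muscle differentiation is a recognised human variant.

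Libraries held 26186236 to 26425111 estimated counts, with 4.94% to 5.47% of them from mitochondrial genes. Eed itself was at 32.6, 36.8 and 30.7 CPM in mutant replicates 1 to 3 and 43.8, 30.1 and 35.6 CPM in wild-type replicates 1 to 3, overlapping ranges that do not check the genotype labels. Granule-lineage tumour markers, such as Atoh1, Barhl1 and Zic1, summed to 4475 to 4815 CPM in the mutants and 4549 to 4805 CPM in wild type, and all 9 were present in every library. Within that sum Atoh1 averaged 160 ± 20.1 CPM in the mutants and 106 ± 27.3 CPM in wild type (SD, n = 3 each). Its groups did not overlap (DESeq2 adjusted p = 0.0495, edgeR adjusted p = 0.202). Gli1 did not overlap either, at 220 to 254 CPM in the mutants and 153 to 216 CPM in wild type. These were 2 of the 9 with higher mutants, and 0 had lower ones, against 13.1% and 11.9% of all tested genes. Barhl1 and Zic1 overlapped, as did Ptch1 (log2 fold change, mutant minus wild type, 0.54) and Pax6 (-0.33). CPM here is the count scaled by TMM library size, used to compare 1 gene between libraries. TPM is scaled by transcript length as well, and is used to compare genes with each other.

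Myh3, Myh2, Myh1, Myh4 and Myh8 lie head to tail, in that order, on the plus strand of chromosome 11 (GRCm38, GENCODE M21). Myh3 spans 67078300 to 67102291 and Myh8 spans 67277124 to 67308634. Myh6 (54941921 to 54966927) and Myh7 (54970684 to 54994626) are neighbours on the minus strand of chromosome 14, and Myh7b stands alone on chromosome 2 (155611212 to 155634307, plus strand). All 8 are annotated as protein coding. The start regions of 4 of them are printed because they set the pair that was high in the mutants, Myh3 and Myh8, beside a nearly silent neighbour, Myh1, and the tested member with the smallest fold change, Myh7b. Each run of 300 bases (RefSeq, GRCm38.p6) reads 5′ to 3′ along the gene, from 250 bases before to 50 bases after the start that RefSeq gives, which for Myh1 and Myh7b is not the GENCODE start.
Myh3 (chr11:67078050-67078349, plus strand): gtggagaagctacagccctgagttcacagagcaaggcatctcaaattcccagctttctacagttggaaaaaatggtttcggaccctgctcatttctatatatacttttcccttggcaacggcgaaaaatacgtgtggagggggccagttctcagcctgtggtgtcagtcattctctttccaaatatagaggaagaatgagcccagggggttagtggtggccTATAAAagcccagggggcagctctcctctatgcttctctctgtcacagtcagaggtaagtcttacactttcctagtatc
Myh8 (chr11:67276874-67277173, plus strand): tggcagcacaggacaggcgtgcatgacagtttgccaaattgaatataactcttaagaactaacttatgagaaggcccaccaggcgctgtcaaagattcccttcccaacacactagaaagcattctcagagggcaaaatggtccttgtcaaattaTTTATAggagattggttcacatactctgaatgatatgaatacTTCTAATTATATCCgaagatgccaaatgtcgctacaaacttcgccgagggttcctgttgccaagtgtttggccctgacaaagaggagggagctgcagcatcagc
Myh1 (chr11:67199852-67200151, plus strand): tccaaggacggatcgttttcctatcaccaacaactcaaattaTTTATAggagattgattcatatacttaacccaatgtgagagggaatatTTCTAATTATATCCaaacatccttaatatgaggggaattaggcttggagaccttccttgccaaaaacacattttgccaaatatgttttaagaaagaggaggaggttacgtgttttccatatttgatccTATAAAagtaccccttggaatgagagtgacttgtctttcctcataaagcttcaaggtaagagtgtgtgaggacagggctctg
Myh7b (chr2:155610993-155611292, plus strand): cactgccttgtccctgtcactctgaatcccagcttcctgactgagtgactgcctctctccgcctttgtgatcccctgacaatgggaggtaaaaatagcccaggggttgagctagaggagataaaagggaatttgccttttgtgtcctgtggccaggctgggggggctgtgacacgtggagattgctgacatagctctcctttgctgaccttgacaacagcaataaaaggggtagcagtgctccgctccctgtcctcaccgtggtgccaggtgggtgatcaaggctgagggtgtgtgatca
Capitals mark TATAAA on either strand, read as TTTATA on the printed one, and the 14-base run TTCTAATTATATCC.

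That run was the longest stretch shared by the windows of Myh8, Myh2, Myh1 and Myh4, was looked for after the sequences were seen, and occurred in 4 of 32851 promoter windows, those same genes. Myh8 and Myh1 also shared 22 bases, TCAAATTATTTATAGGAGATTG. The Myh3 window held neither run. TATAAA was present in the windows of Myh3, Myh8, Myh2, Myh1, Myh4 and Myh6, against 13.6% of all windows. The E-box CANNTG, which reads the same on both strands and is the kind of site that Myod1 and Myog bind, occurred once in the Myh3 window and 2 times in that of Myh8, and was in 72.3% of all windows. A motif for MEF2, a family of muscle and neuronal transcription factors, was found on either strand in the windows of Myh8, Myh1 and Myh4 and in 1.86% of all windows. In Myh8 the only TATAAA and the MEF2 match lie inside the 22-base run shared with Myh1, so these are not separate features. In Myh1 the MEF2 match and 1 of 2 TATAAA lie inside it too. The members' windows held 1 to 9 CpG pairs, beside a median of 7 over all windows. Myh8, which was high in the mutants, and Myh1, which was nearly silent in every tumour, thus carried the same 14-base and 22-base runs. These matches are descriptions of letters and not of bound sites.

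Myh3 and Myh8 were higher in every Eed mutant tumour than in any wild-type tumour. Myh3 had 959, 395 and 3174 estimated counts in mutant replicates 1 to 3, against 20, 20 and 152 in wild-type replicates 1 to 3. In CPM these were 36.8, 15.2 and 120.01 in the mutants and 0.755, 0.757 and 5.78 in wild type. Mutant replicate 3 stood highest while wild-type replicate 3 was the highest of its group, and the lowest mutant was 2.63 times the highest wild-type library. The means were 57.3 ± 55.3 CPM in the mutants and 2.43 ± 2.90 CPM in wild type (SD, n = 3 each), so the spread was about as large as the mean in both groups. The log2 fold change, mutant minus wild type, was 4.56 (SE 1.04), the 5th highest of 19145 genes tested. It did not pass edgeR's quasi-likelihood test over all genes (adjusted p = 0.149) and passed DESeq2 (adjusted p = 0.00610, with 4.09e-11 to 0.470 over all alternatives of both tools).

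Myh8 followed the same pattern at a lower level. Its estimated counts were 540, 286 and 1219 in mutant replicates 1 to 3, against 9.30, 20.0 and 84.4 in wild-type replicates 1 to 3. In CPM the mutants had 20.7, 10.97 and 46.1, while wild type had 0.351, 0.755 and 3.21. The groups did not overlap, and replicate 3 was again the highest in each. The means were 25.9 ± 18.1 CPM in the mutants and 1.44 ± 1.55 CPM in wild type (SD, n = 3 each), a log2 difference of 4.18 in edgeR (SE 0.835). It too missed edgeR's threshold over all genes (adjusted p = 0.139) and passed DESeq2 (adjusted p = 0.00294, with 6.73e-27 to 0.451 over all alternatives of both tools). Retained-intron transcripts took 3.18, 10.8 and 4.08 of the Myh8 counts in wild type, after 9.56, 9.12 and 16.1 in the mutants. That is 1.77%, 3.19% and 1.32% of Myh8 in the mutants and 34.2%, 54.1% and 4.83% in wild type. These transcripts also hold exon sequence, and the wild-type values rest on few reads. Counted on the full-length coding transcript alone, Myh8 had 530, 274 and 1200 counts in the mutants and 6.12, 9.15 and 79.1 in wild type.

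The DESeq2 calls of this pair rested on particular libraries. For Myh3 the adjusted p in DESeq2 was 0.0740 without mutant replicate 1, 0.139 without mutant replicate 3 and 0.0502 without wild-type replicate 2. For Myh8 it was 0.0600 without mutant replicate 1 and 0.0835 without mutant replicate 3. The edgeR log2 fold change of Myh3 was 3.42 without mutant replicate 3 and 6.24 without wild-type replicate 3, and that of Myh8 was 3.47 and 5.55. The deposited tables carry a code that some libraries share, and the sources used here do not say what it means. No mutant shares the code of wild-type replicate 1. Among libraries with the code P19, Myh3 averaged 25.995 CPM in mutant replicates 1 and 2 and was at 0.757 CPM in wild-type replicate 2. Among those with P18, it was at 120.01 CPM in mutant replicate 3 and 5.78 CPM in wild-type replicate 3. The direction was the same within both codes, each of which has 1 wild-type library. With the code as a term in the fit to all libraries, the log2 fold change in edgeR was 4.66 for Myh3 and 4.09 for Myh8 (adjusted p = 0.154 for each). The same term in DESeq2 gave an adjusted p of 4.09e-11 for Myh3 and 6.73e-27 for Myh8. Wild-type replicate 1 is alone in its code, so with this term it adds nothing to the genotype difference. Few libraries are then left to estimate the variation, so these small values are not stronger support than those without the term.

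**Figure D1:**
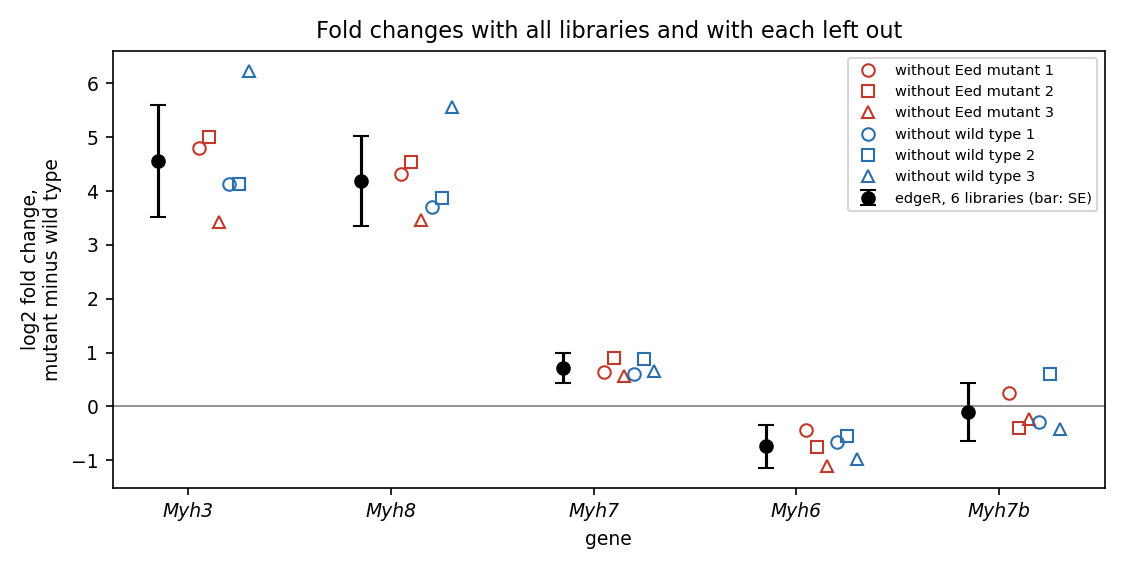
Log2 fold changes (vertical axis, mutant minus wild type, edgeR) of Myh3, Myh8, Myh7, Myh6 and Myh7b; black points with bars show the fit to all 6 libraries and its SE, and open symbols show the fit without 1 library. Myh3 and Myh8 stay between 3.42 and 6.24 with any library left out, while Myh7b lies on both sides of 0.

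Of the 5 members tested, 0 passed edgeR over all genes, where 0% of all genes did. DESeq2 called 2 of them higher, Myh3 and Myh8, where 3.15% of its 16347 genes were called higher, and 0 lower, where 2.48% were. Myh3 and Myh8 were also the tested members whose groups did not overlap, which held for 13.1% of all tested genes with higher mutants and 11.9% with lower ones. At an unadjusted p under 0.05 in edgeR, 3 members were higher (Myh3, Myh8 and Myh7), where 9.29% of all genes were, and 0 were lower, where 8.78% were. Myh8 reached the filter's level in 2 wild-type libraries and in all 3 mutants, so wild type alone would not have carried it past the filter. Myh2, Myh1 and Myh4 did not reach it and have no test.

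Adult fast chains stayed near the limit of detection in every tumour. Myh2 had 2.01, 0 and 10.02 counts in mutant replicates 1 to 3 and 0 in each wild-type library. Against a floor of 3 counts over the wild-type group, the 12.03 counts of the mutants were 3.99-fold higher, most of them from mutant replicate 3. The floor covers the wild-type side only, so this ratio does not bound the difference between the groups. Myh1 had 1, 7.03 and 11.03 counts in the mutants and 3, 1 and 2 in wild type. In 5 libraries 1 of these counts sat on the short transcript Myh1-204, which inflates the TPM of the gene. Myh4 had 15.03, 5.08 and 16.02 counts in the mutants, and 0, 1 and 7 in wild type. For all 3 genes the groups overlapped, for Myh2 at 0 in mutant replicate 2.

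Together the 3 adult fast chains gave 18.04, 12.1 and 37.1 counts in the mutants and 3, 2 and 9 in wild type, groups that did not overlap. In the same mutants Myh3 and Myh8 together gave 1499, 680 and 4393 counts, and in the wild-type libraries 29.3, 40.0 and 236. The fast genes share sequence with the embryonic pair: 42.9% of the distinct 31-base words of Myh1, 34.5% of those of Myh2 and 30.4% of those of Myh4 occur in other genes, and the genes they share most with are each other and Myh8. For Myh3 the share was 11.1%, for Myh8 18.6% and for Myh7b 0.273%. How far estimated counts of the adult fast chains are reads of Myh3 or Myh8 was not tested.

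The slow and cardiac chains were low in both genotypes, with overlapping groups and no call in edgeR or DESeq2. Myh7 had 47.7, 30.7 and 53.3 counts in the mutants and 23.3, 32.7 and 25.3 in wild type, and the groups overlapped. Its means were 1.68 ± 0.439 CPM in the mutants and 1.03 ± 0.187 CPM in wild type (SD, n = 3 each), 0.71 higher in log2 terms (SE 0.273, edgeR adjusted p = 0.244). A retained-intron transcript of 3769 bases took 26.2, 8.54 and 19.3 of these counts in the mutants and 13.1, 18.8 and 8.96 in wild type. The coding remainder was 21.5, 22.2 and 34.0 counts in the mutants and 10.2, 13.8 and 16.4 in wild type, which did not overlap but rests on few reads.

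Myh6 leaned the other way, with 12.7, 24.6 and 35.5 counts in the mutants and 45.8, 52.2 and 27.3 in wild type. The groups overlapped through mutant replicate 3 and wild-type replicate 3. In log2 terms this was -0.74 (SE 0.401) with an edgeR adjusted p of 0.367. Myh6 and Myh7 have 1974 of their 31-base words in common, 29.2% of those of Myh6 occur in some other gene, and the noncoding Mhrt overlaps Myh7 on the opposite strand, so without strand information the split between these genes is uncertain.

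By TPM, Myh7b was the most abundant member in every wild-type tumour and its groups overlapped widely. It had 261, 789 and 678 counts in the mutants and 453, 1106 and 312 in wild type, with the lowest library in the mutants and the highest in wild type. The means were 22.0 ± 10.6 CPM in the mutants and 23.6 ± 16.0 CPM in wild type (SD, n = 3 each), a log2 difference of -0.10 (SE 0.543, edgeR adjusted p = 0.939). Its sign turned without mutant replicate 1 (0.24) and without wild-type replicate 2 (0.60). A pair of short transcripts that are not annotated as coding, of 667 and 674 bases, carried most of its TPM. The full-length transcript Myh7b-201 held 28.5%, 25.6% and 25.3% of the gene's TPM in the mutants and 24.7%, 23.3% and 28.0% in wild type, but 78.7% to 83.1% of its counts over the 6 libraries.

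For levels between genes, TPM was therefore summed over transcripts of at least 5000 bases, which are the full-length coding ones. On that scale the order in the mutants began with Myh3 at 15.3 ± 14.9 TPM, Myh8 at 6.65 ± 4.77 TPM and Myh7b at 4.37 ± 2.08 TPM (SD, n = 3), neighbours whose ranges overlapped. Then came Myh7 at 0.252, Myh6 at 0.237, Myh4 at 0.125, Myh1 at 0.0592 and Myh2 at 0.0403 TPM on average. Myh7b and Myh7 did not overlap, while each later pair of neighbours did. In wild type Myh7b led at 4.70 ± 3.08 TPM, above the range of every other member. Myh3 followed at 0.660 ± 0.788, Myh6 at 0.413 ± 0.127, Myh8 at 0.318 ± 0.418 and Myh7 at 0.133 ± 0.0310 TPM, with overlapping neighbours. Myh4 at 0.0282 TPM lay below the range of Myh7, Myh1 at 0.0105 TPM overlapped Myh4, and Myh2 had no counts.

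**Figure D2:**
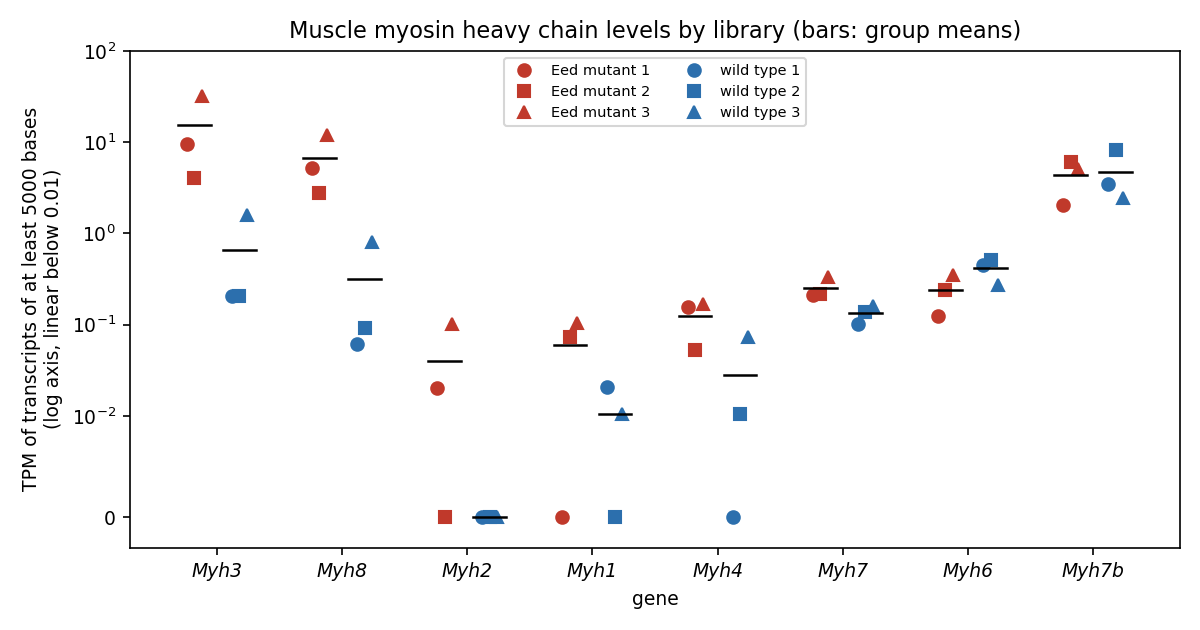
TPM of full-length transcripts (vertical axis, logarithmic and linear below 0.01) of each myosin heavy chain gene in 3 Eed mutant (red) and 3 wild-type (blue) tumours; black bars are group means. Myh3 and Myh8 separate the groups, Myh7b spans 2.02 to 8.21 TPM across both, and the adult fast chains lie at or below 0.167 TPM.

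The make-up of the family followed from these levels. Myh3 and Myh8 made up 85.4%, 50.8% and 87.7% of the full-length TPM of the 8 genes in mutant replicates 1 to 3 and 6.25%, 3.25% and 44.4% in wild-type replicates 1 to 3. With all transcripts the shares were 64.7%, 22.4% and 67.2% in the mutants and 2.07%, 1.21% and 20.5% in wild type. Every mutant lay above every wild-type tumour on both scales, though mutant replicate 2 and wild-type replicate 3 lay close to each other. With Myh7b left out, the full-length share was 96.7%, 92.1% and 97.7% in the mutants and 31.8%, 31.003% and 82.1% in wild type. In wild-type replicate 3 the pair was thus below 50% of the 8 genes and above it once Myh7b was left out. Its summed full-length TPM of the pair was 2.37, against 0.267 and 0.298 in wild-type replicates 1 and 2, and 14.9, 6.77 and 44.1 in the mutants. No test was made of these sums and shares, nor of the difference in response between the embryonic and the adult chains.

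**Figure D3:**
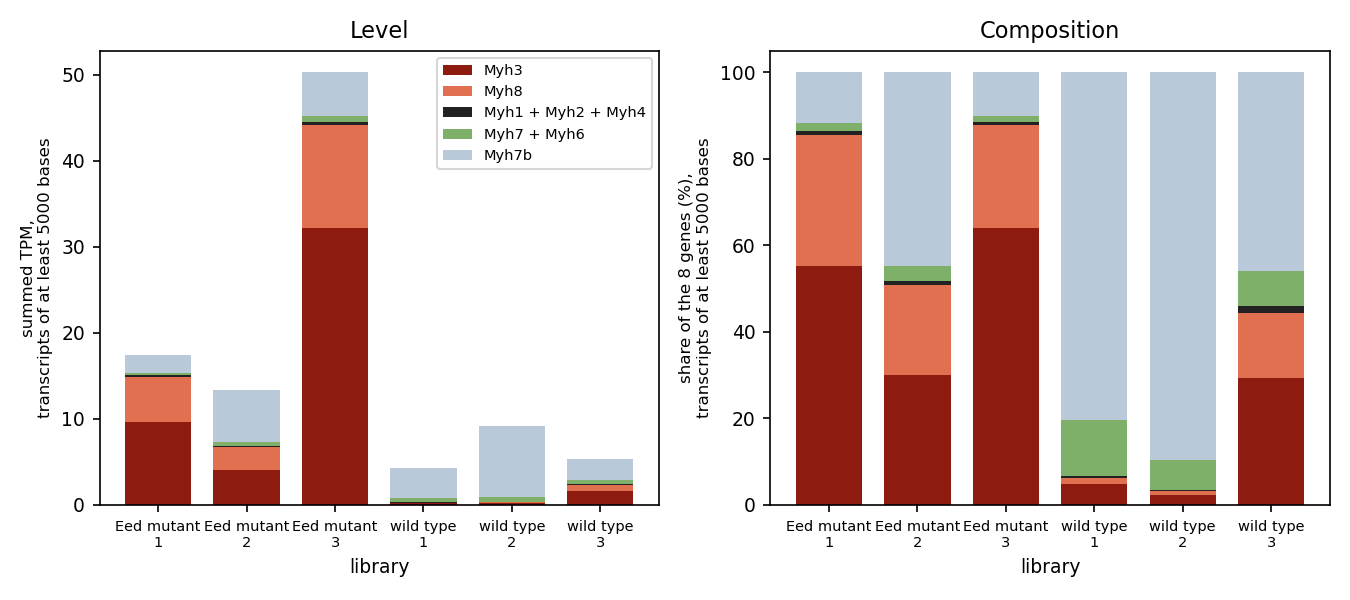
Summed full-length TPM (left) and share in percent (right) of the myosin heavy chains in each tumour, mutants first, split into Myh3, Myh8, the 3 adult fast chains, Myh7 with Myh6, and Myh7b. Myh3 and Myh8 make up 50.8% to 87.7% in the mutants and 3.25% to 44.4% in wild type.

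Within the pair, Myh3 gave at least 50% of the counts in every tumour. Myh3 was 64.0% (95% Clopper-Pearson interval 61.5% to 66.4%), 58.1% (54.3% to 61.8%) and 72.3% (70.9% to 73.6%) of the counts of the pair in mutant replicates 1 to 3. In wild-type replicates 1 to 3 it was 68.97% (49.2% to 84.7%), 50% (33.8% to 66.2%) and 64.4% (57.9% to 70.5%). The intervals cover counting error only. The interval of mutant replicate 3 lay above those of the other mutants and of wild-type replicates 2 and 3, while the intervals of mutant replicates 1 and 2 overlapped those of every wild-type library. The wild-type values rest on 29, 40 and 236 counts.

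The estimate also divided Myh3 among 3 transcripts with the same coding exons. The one of 6031 bases has an extra noncoding exon of 55 bases (chromosome 11, 67079095 to 67079149, GRCm38). It took 99.9%, 99.7% and 89.7% of Myh3 counts in the mutants and 0.0166%, 100% and 0.0105% in wild type. Only 75 of its 6001 distinct 31-base words are absent from the others, so at 20 to 152 counts the wild-type values turn on very few reads. The one wild-type library with many Myh3 reads, replicate 3, had nearly none assigned to the transcript with the extra exon.

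Many partners of the heavy chains in the sarcomere were higher in the mutants along with Myh3 and Myh8. All 3 tested of 6 sarcomeric light chains had non-overlapping, higher mutants, with a median log2 fold change of 3.10 beside -0.01 over all tested genes, and DESeq2 called 2 of them higher. Over all genes 13.1% had non-overlapping, higher mutants and DESeq2 called 3.15% higher and 2.48% lower, the background for each list here. Myl1 reached the filter's level in 2 wild-type libraries. Mylpf, the regulatory light chain of fast muscle, averaged 10.4 ± 7.90 CPM in the mutants and 1.21 ± 0.801 CPM in wild type (SD, n = 3 each), with DESeq2 adjusted p = 0.00583. Myl4, the light chain of embryonic muscle and atrium, averaged 6.98 ± 3.94 CPM in the mutants and 2.05 ± 0.617 CPM in wild type. Myl1, the fast essential light chain, averaged 21.6 CPM in the mutants and 1.51 CPM in wild type and did not pass DESeq2 (adjusted p = 0.0597). The ventricular and slow light chains Myl2 and Myl3 and the atrial Myl7 had at most 7 counts in any library.

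Of 13 thick filament and M-band partners 10 were tested, DESeq2 called 7 higher and 0 lower, and the median log2 fold change was 2.11. Among them were the giant filament ruler Ttn (log2 fold change 3.50), the M-band proteins Myom2 (3.57) and Myom3 (3.07) and the myosin-binding protein Mybph (3.96). Of the 10 tested, 4 (Mybph, Myom2, Myom3 and Mylk4) reached the filter's level in fewer than 3 wild-type libraries and passed it through the mutants, so the count and the median are descriptions. Of 15 thin filament genes 14 were tested, 10 were called higher and 0 lower by DESeq2, and the median was 3.14. The skeletal actin Acta1 was at 17.7 ± 12.5 CPM in the mutants and 1.54 ± 0.784 CPM in wild type, and the fast troponin Tnnt3 at 7.83 ± 5.14 and 0.619 ± 0.325 CPM (SD, n = 3 each). Among 8 listed genes of myosin folding and assembly 5 were tested and 2 were called higher by DESeq2, the myosin chaperone Unc45b (log2 fold change 1.88) and the muscle methyltransferase Smyd1 (1.43). None of the genes in these lists passed edgeR over all genes. Of the 14 thin filament genes, 7 reached the filter's level in fewer than 3 wild-type libraries, among them Tnnt3. Of these, 1 was tested only through the mutants. The count and median of the thin filament list are likewise descriptions.

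Genes of mature fibres gave a divided picture. Of 12 listed, 9 were tested, with a median log2 fold change of 0.57, and DESeq2 called 3 higher, Ckm, Atp2a1 and Mb. The filter's level was reached in fewer than 3 wild-type libraries by 3 of the 9, Atp2a1, Mb and Cox6a2. Mb and Cox6a2 reached it in 0 wild-type libraries and were tested only through the mutants. The count and the median of this list are therefore descriptions too. Ckm, the muscle creatine kinase, averaged 5.88 CPM in the mutants and 0.676 CPM in wild type, and the calcium pump Atp2a1 10.1 and 0.906 CPM. The remaining genes named here were chosen after their values were seen. The sarcomeric actinin of fast fibres, Actn3, was at 0.699 CPM in the mutants and 0.619 CPM in wild type. Parvalbumin (Pvalb), which cerebellar interneurons also express, was at 40.3 and 59.8 CPM.

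Among the 17 regulators of muscle and fibre type, 14 were tested and DESeq2 called 3 higher, Six4, Pax3 and Mymk, where it called 3.15% of all genes higher, with a median log2 fold change of 0.44 for the list. Mymk and Myog reached the filter's level in 1 wild-type library each. Myod1, which commits cells to muscle, averaged 62.5 ± 12.7 CPM in the mutants and 61.7 ± 17.2 CPM in wild type (SD, n = 3 each). Myog, which drives the differentiation of such cells, averaged 12.9 ± 11.2 and 0.861 ± 1.30 CPM (SD, n = 3 each). It passed neither edgeR (adjusted p = 0.173) nor DESeq2 (adjusted p = 0.0994). Mymk, needed for myoblast fusion, averaged 2.15 CPM in the mutants and 0.266 CPM in wild type. Its partner in fusion, Mymx, was at 1.68 and 1.74 CPM (log2 fold change -0.05). Myf5 had 0 counts in all 6 libraries and Pax7, the satellite cell factor, 1 count in mutant replicate 1 and 0 elsewhere.

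**Figure D4:**
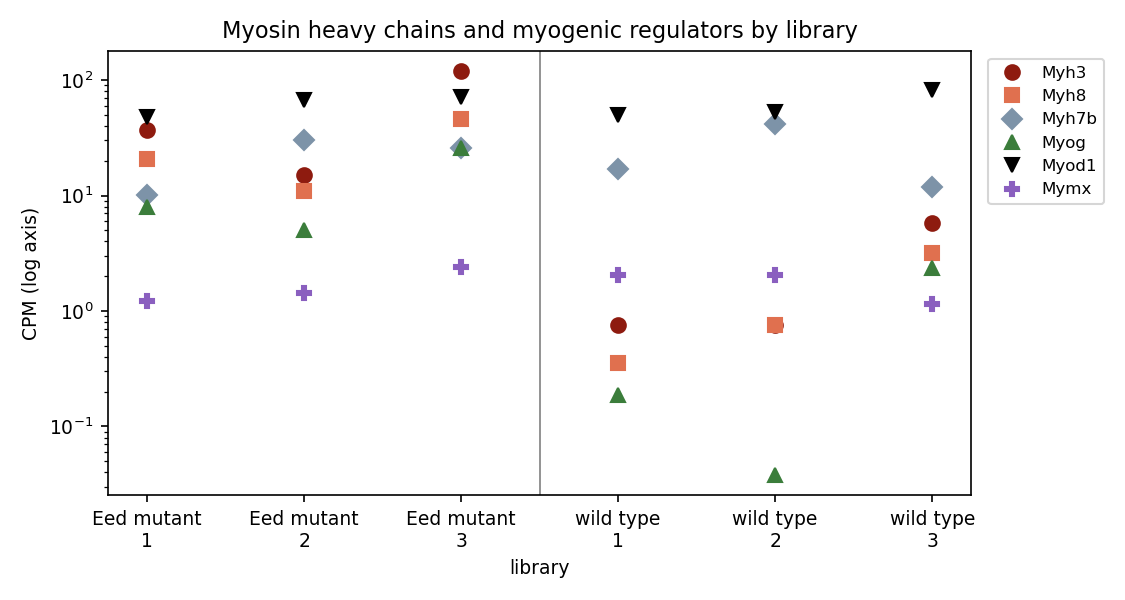
CPM on a log axis of Myh3, Myh8, Myh7b and 3 muscle regulators in each tumour, mutants left of the line. Myh3, Myh8 and Myog are highest in mutant replicate 3 and, within wild type, in replicate 3, while Myod1 averages 62.5 CPM in the mutants and 61.7 CPM in wild type.

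The order of the libraries was shared with the sarcomere genes. Mutant replicate 3 was the highest of all 6 libraries for 13 of 14 tested thin filament genes, 7 of 10 thick filament partners and all 3 light chains, against 13.8% of all tested genes. So it was for 8 of 9 mature fibre genes, 9 of 14 regulators and 3 of 5 folding genes. For other tissues it was 5 of 11 smooth muscle, 4 of 10 fibroblast, 1 of 4 heart and 0 of 9 granule-lineage markers. Where groups do not overlap with higher mutants, as for 12 of the 14 thin filament genes, the highest library must be a mutant. The 13.8% is not a like background for such genes. By Pearson correlation of log2 CPM over the 6 libraries, the genes most like Myh3 among 15929 were Vdac2, Klhl41, Ttn, Tnnt2 and Atp2a1, with r from 0.994 to 0.999, and Myh8 was 16th (r = 0.989). Vdac2, a mitochondrial channel, ranked first although it varied only between 147 and 156 CPM (log2 fold change 0.05). Those most like Myh7b were Glcci1, Csrnp2, Klhl18, Cd52 and Capzb, with r from 0.971 to 0.985. These correlations share the same 6 libraries and are descriptions only.

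Markers of other tissues that bulk tumour RNA could hold were followed beside the myosins. Smooth muscle and pericyte markers, 11 of 11 tested, had a median log2 fold change of 0.34. They summed to 269 to 312 CPM in the mutants and 204 to 239 CPM in wild type. Rgs5 alone was at 158 to 180 CPM in the mutants and 108 to 138 CPM in wild type. DESeq2 called Acta2, Smtn and Rgs5 higher. Groups did not overlap for 4 of the 11 with higher mutants and for 2 with lower ones, Kcnj8 and Cnn1. Over all tested genes these shares were 13.1% and 11.9%. None of the 11 was at 0 in any library. The smooth muscle actin Acta2 averaged 8.28 CPM in the mutants and 3.55 CPM in wild type, while the smooth muscle myosin Myh11 averaged 2.43 and 2.17 CPM. Their part in the Myh3 and Myh8 difference was not tested. Fibroblast and meningeal markers, 10 of 10 tested, had a median of -0.29, with Dcn called lower by DESeq2. Their sums were 406 to 482 CPM in the mutants and 541 to 587 CPM in wild type. Pdgfra alone was at 243 to 357 CPM in the mutants and 309 to 373 CPM in wild type, overlapping groups. Of the 10, 3 (Dcn, Slc6a13 and Ptgds) had non-overlapping, lower mutants and 0 had higher ones, while Foxc1 leaned higher (0.53).

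Of 11 heart markers 4 were tested, with a median of 0.21 and 0 called by DESeq2. Nppa and Tnni3, 2 of the 4, had non-overlapping, higher mutants, where 13.1% of all tested genes did. Tnni3 averaged 0.814 CPM in the mutants and 0.568 CPM in wild type. Sums over the 11 were 13.5 to 23.6 CPM in the mutants and 13.4 to 30.5 CPM in wild type. Of these sums, Mybpc3 gave 8.87 to 19.5 CPM in the mutants and 10.5 to 27.2 CPM in wild type. Mybpc3 and Tnni3 are also in the thick and thin filament lists. The atrial natriuretic peptide Nppa averaged 1.33 ± 0.483 CPM in the mutants and 0.701 ± 0.0990 CPM in wild type (SD, n = 3 each), groups that did not overlap (edgeR adjusted p = 0.211). Sln, a calcium pump regulator of atrium and skeletal muscle that was not tested, had 17, 10 and 39 counts in the mutants and 1, 1 and 7 in wild type. The part of heart markers in the Myh3 and Myh8 difference was not tested. The natriuretic peptide Nppb and the atrial light chain Myl7 had at most 2 counts in any library. The heart factor Nkx2-5 had 3, 4 and 7 counts in mutant replicates 1 to 3 and 0 in wild type.

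**Figure D5:**
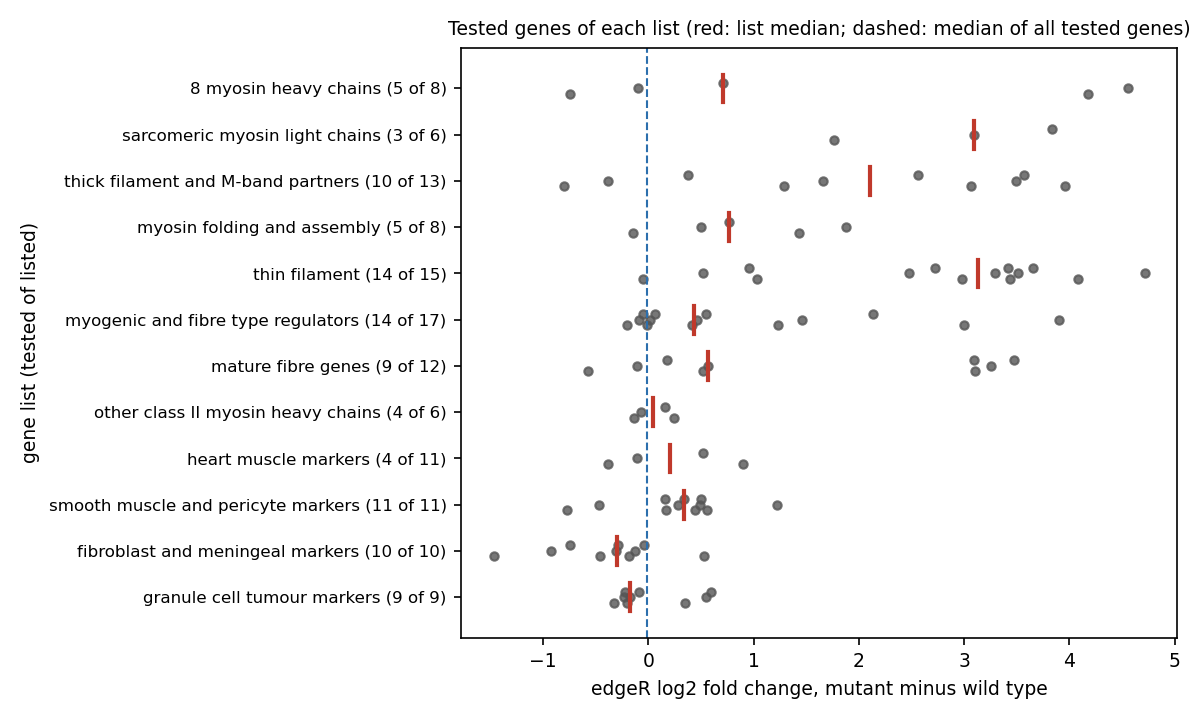
Log2 fold changes (horizontal axis, edgeR, mutant minus wild type) of the tested genes of each list, with the list median in red and the median of all tested genes, -0.01, as a dashed line. Light chains, thick filament and thin filament genes have medians of 3.10, 2.11 and 3.14, while the lists of other tissues lie between -0.29 and 0.34.

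Few genes flanking the myosins had enough counts to test. Within 100 kb of the block from Myh3 to Myh8 there were 10 other annotated genes in the files, of which 3 were tested, and their log2 fold changes were 0.09 to 0.20. They were Tmem220, Adprm and Sco1, which lie before Myh3 on the chromosome, and the groups overlapped for each. The extraocular chain Myh13, next after Myh8, had at most 2.06 counts in any library. Around Myh6 and Myh7, 11 of 20 other genes were tested, with log2 fold changes of -0.80 to 0.10, and around Myh7b 7 of 13, with -0.52 to 0.56. None of these neighbours passed edgeR over all genes (smallest adjusted p = 0.166, for Acss2 near Myh7b). No gene of the whole set did (smallest edgeR adjusted p = 0.0808). Groups did not overlap, with lower mutants, for 3 of the 11 (Bcl2l2, Slc22a17 and Zfhx2) and 1 of the 7 (Acss2). This held for 11.9% of all tested genes. In these 2 blocks 0 tested neighbours had non-overlapping, higher mutants, against 13.1%.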

How the data were processed

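RNA-seq libraries of 3 Eed mutant and 3 wild-type medulloblastomas were each deposited as 1 transcript table. Per the file headers and the submitters' processing notes, the authors made the estimated counts and the TPM values with kallisto 0.43.1 on GRCm38/mm10. TPM is scaled by the effective length in the same deposited files. Each library held 26186236 to 26425111 estimated counts, and 3 counts are about 0.114 CPM. Counts were summed per gene, rounded and tested with edgeR 4.0.16 (quasi-likelihood, TMM, filterByExpr, 19145 genes, Benjamini-Hochberg adjustment at 0.05) in R 4.3.3. DESeq2 1.42.0 and limma 3.58.1 were alternatives, with other filters, scalings, pseudocounts and libraries left out. On simulated data with 200 changed genes among 19145, edgeR recovered 49.3% of genes changed 2-fold and 86.7% of those changed 4-fold, with 4.67% false calls. DESeq2 recovered 61% and 86.7%, with 23.03% false calls. The simulated counts were drawn with edgeR's own dispersion estimates, so the 2 tools were not compared on equal terms.

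The members and gene lists were chosen with earlier results of these data known. Named genes were the members, up to 4 genes per list with the smallest edgeR p and a mean of at least 1 CPM, set regulators, and the 5 genes most correlated with Myh3 and with Myh7b. Barhl1, Zic1, Mylk4, Cox6a2, Actn3, Pvalb, Myh13, Myh15, Sln, Nkx2-5, Nppb, Myl2, Myl3, Myl7, Tnni3, Kcnj8, Cnn1, Pdgfra and genes beside the myosins were named outside this rule after their values were seen. DESeq2 fits without 1 library and sums over transcripts of at least 5000 bases were added after seeing the data. Gene positions and types are from GENCODE M21, matched by gene ID without version. Confidence intervals and the floor of 3 counts cover counting error only.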

Additional observations from a re-analysis of the deposited data

How the results depend on the processing

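With edgeR 0 genes passed over all 19145. DESeq2 called 920 (515 higher, 405 lower), limma-voom 1, limma-trend on log2(TPM + 0.1) 1 and edgeR without a filter 3, and leaving out 1 library gave 0 to 9 in edgeR and 212 to 1256 in DESeq2 (212 without mutant replicate 1, 310 without mutant replicate 3, 562 without wild-type replicate 2). The log2 fold changes of Myh3 and Myh8 were positive under every alternative run and passed in DESeq2 (4.56 and 4.18). Without 1 library DESeq2 gave 3.42 to 6.25 for Myh3 and 3.47 to 5.56 for Myh8. The sign of Myh1 turned on log2(TPM + 1) (-0.0015), on log2(TPM + 0.1) (-0.0499) and with an effective length offset (-0.0479), and the cause was not tested. Myh7b lay between -0.42 and 0.60 without 1 library. The log2 ratio of summed TPM of the 8 genes was 0.94 over all transcripts, 1.90 over coding ones and 1.93 over those of at least 5000 bases. The Myh3 share of the pair's TPM differed by 6.31 points over all transcripts, -4.93 over coding ones and -5.03 over the long ones, with no test of the cause. The labels do not say whether replicate numbers pair the samples. Deviations of same-numbered libraries correlated at 0.23, 0.06 and -0.13, and those of differently numbered ones at -0.29 to 0.19. With 3 libraries per group these values cannot decide it. Replicate 2 of both groups has the code P19, and replicate 3 of both has P18. With the replicate number as a block, edgeR called 273 genes, among them Myh3 (4.70) and Myh8 (4.35). Depth limits Myh2, Myh1 and Myh4, which had at most 16.02 counts per library.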

Other observations

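Myosin heavy chains of nonmuscle and smooth muscle cells were expressed in both genotypes. Of 6 other class II heavy chain genes 4 were tested, Myh13 and Myh15 having at most 13 counts in any library, with a median log2 fold change of 0.05. Myh10, the nonmuscle chain typical of neural tissue, averaged 368 ± 13.8 CPM in the mutants and 386 ± 13.7 CPM in wild type (SD, n = 3 each). Myh9, the nonmuscle chain of most other cells, averaged 92.3 ± 4.06 CPM in the mutants and 77.9 ± 3.59 CPM in wild type, groups that did not overlap (log2 fold change 0.24, edgeR adjusted p = 0.159). Myh14 averaged 26.2 CPM in the mutants and 28.8 CPM in wild type.

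Noncoding RNAs of the myosin loci were nearly absent. The intergenic RNA 2310065F04Rik, which lies between Myh3 and Myh2, and the antisense Myhas had 0 counts in all 6 libraries. Mir208b had 0 counts too, Mir208a had 0 to 4 per library and Mir499, inside Myh7b, had 1 count in mutant replicate 3 and 0 elsewhere, although libraries of this kind do not measure mature microRNAs. Mhrt, antisense to Myh7, had at most 4 counts in any library.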
